A study of Mus musculus with 8 samples.

Results

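Fatty acid desaturases place double bonds into fatty acids, and elongases add carbon units to their chains. Together they turn the palmitate made by the liver into stearate and oleate, and turn the essential fatty acids of the diet into arachidonic and docosahexaenoic acid. In liver many of these genes are known targets of the transcription factor encoded by Srebf1, which insulin and carbohydrate feeding activate, and polyunsaturated fat in the diet is known to hold several of them down. The genes described here are 9 members of both families, namely the desaturase genes Scd1, Scd2, Fads1, Fads2 and Fads3 and the elongase genes Elovl1, Elovl2, Elovl5 and Elovl6. They were chosen by name, and every probe whose sequence identifier maps to 1 of these symbols was used. All 9 were measured, among 20165 features tested in all, of which 12885 carry a gene symbol.

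The RNA came from whole liver of 8 male C57BL/6 mice, bought at 5 weeks of age and fed either a normal diet (ND: 4.8% fat, 50.21% carbohydrate, 20.78% protein, 3.8 kcal/g) or the high-fat diet D12231 (HFD: 58% fat, 25.5% carbohydrate, 16.4% protein, 5.2 kcal/g). Feeding lasted 3 or 9 months, which gave 4 groups of 2 mice, each mouse on its own 1-colour Agilent array. The mice carried no transgene or deletion named in the labels, and the titles number the mice of a group 1 and 2. Values are log2 signals relative to the 75th percentile of the same array, so that a value of 1 stands for a signal 2-fold above that percentile. The order of probes by brightness says nothing of the order of transcripts, and levels are therefore compared between arrays, never between genes. In whole tissue, fewer cells of a type and less RNA per cell cannot be told apart.

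The 2 slides used held 1 diet each, so slide and diet cannot be told apart wherever diets are compared. On both slides row 1 was for the 3-month mice and row 2 for the 9-month mice, so duration and row cannot be told apart either. Months stand for time on the diet. As all mice were bought at 5 weeks of age, duration and age cannot be told apart. A slide effect shared by both rows would cancel in the difference between the diet effects at 9 and at 3 months, by the construction of that contrast. The array of HFD 9 months mouse 2 was dim, with an intensity of 185 at its 75th percentile, against 368 to 428 for the other HFD mice and 482 to 597 for the ND mice. Fewer of its spots were well above background than elsewhere (40.6%, against 43.0% to 54.1%). Replicate spots of a probe within an array spread more on HFD arrays. Their median SD (log2) was 0.121 to 0.156 there and 0.0686 to 0.0786 on ND arrays. Mice of the same group correlated across genes with r between 0.968 and 0.994. With 2 mice a group an exact permutation test of a single gene cannot go below p = 0.333 (two-sided), so all tests are from 1 limma fit across all features, with Benjamini-Hochberg adjustment and a threshold of 0.05. Differences are given as log2 values ± SE (n = 2 mice per group).

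Each member was represented by 1 probe except Elovl1, which had 2. All 10 probes were well above background on all 8 arrays, and none was saturated or dropped as an outlier. Scd1 and Scd2 lie in a cluster of close relatives with Scd3 and Scd4, and Fads1, Fads2 and Fads3 are neighbouring protein-coding genes in the RefSeq table of assembly GRCm38.p6. Cross-hybridisation between such relatives was not tested.

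Sequence upstream of the annotated start was given for 6 of the 9 members, as 8 windows of 250 bases from RefSeq (build GRCm38.p6). Those of Fads2, Elovl5 and Elovl6 are printed because these 3 genes were among the 5 members that differed most between the 2 mice on HFD for 3 months. Letters in capitals mark matches, on either strand, to 6 short motifs of factors known from lipid gene control or from promoters in general. They are a sterol regulatory element core with the letters TCACNCCAC, the CCAAT box, a GC box with the letters GGGCGG and an E-box with the letters CACGTG. The others are direct repeats of AGGTCA spaced by 1 or by 4 bases. The windows, 5′ to 3′ on the strand of the gene, are chr19:10101504-10101753 (minus strand) for Fads2, chr9:77917115-77917364 (plus strand) for Elovl5 and chr3:129532136-129532385 (plus strand) for Elovl6.
Fads2: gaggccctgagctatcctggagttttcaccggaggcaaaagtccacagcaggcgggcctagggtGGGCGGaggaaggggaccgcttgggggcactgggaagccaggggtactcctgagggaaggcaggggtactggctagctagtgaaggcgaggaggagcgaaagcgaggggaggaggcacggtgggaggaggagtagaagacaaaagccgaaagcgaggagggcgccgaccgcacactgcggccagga
Elovl5: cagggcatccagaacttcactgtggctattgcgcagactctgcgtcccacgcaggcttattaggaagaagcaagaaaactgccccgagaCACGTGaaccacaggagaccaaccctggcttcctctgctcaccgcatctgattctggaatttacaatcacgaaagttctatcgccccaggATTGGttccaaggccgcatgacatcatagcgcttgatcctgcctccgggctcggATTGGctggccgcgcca
Elovl6: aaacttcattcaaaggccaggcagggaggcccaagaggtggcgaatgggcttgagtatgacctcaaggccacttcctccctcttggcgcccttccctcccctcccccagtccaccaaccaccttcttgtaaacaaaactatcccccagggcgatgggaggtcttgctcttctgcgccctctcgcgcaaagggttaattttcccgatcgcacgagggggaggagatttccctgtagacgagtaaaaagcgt
In the Fads2 window 1 GC box began at position -186 from the annotated start. The Elovl5 window held CACGTG at -161 and CCAAT on the opposite strand (printed as ATTGG) at -71 and -17, and none of these matches overlapped another. The Elovl6 window held none of the 6 motifs, which says only that these letters are not in these 250 bases. Among all 32851 windows of this length, 32.7% held a GC box, 33.8% a CCAAT and 6.02% a CACGTG. The sterol element core, found in 1.05% of all windows, was in none of the 8 member windows, and neither direct repeat was (0.0335% and 0.0152% of all windows).

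None of the 9 genes passed the threshold in any of the 5 comparisons. In HFD versus ND at 3 months 0 of 9 were called against 5.18% of all features, and at 9 months 0 of 9 against 8.28%. For 9 versus 3 months the counts were 0 of 9 against 1.04% on ND and 0 of 9 against 0.00992% on HFD, and for the difference between the diet effects 0 of 9 against 0% (1537 features had an unadjusted p under 0.05). At an unadjusted p under 0.05 there were 2 members for diet at 3 months (Fads2 and Fads3), 1 for diet at 9 months (Scd2), 1 for the difference between them (Fads3), 2 for time on ND (Scd1 and Fads3) and 2 for time on HFD (Fads1 and Fads2). The intervals are wide, as the plot of the 5 comparisons shows, and a missed threshold does not show that the groups were alike. Without the dim array, HFD 9 months mouse 2, 0 of 9 were called in each comparison as well.

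**Figure D1:**
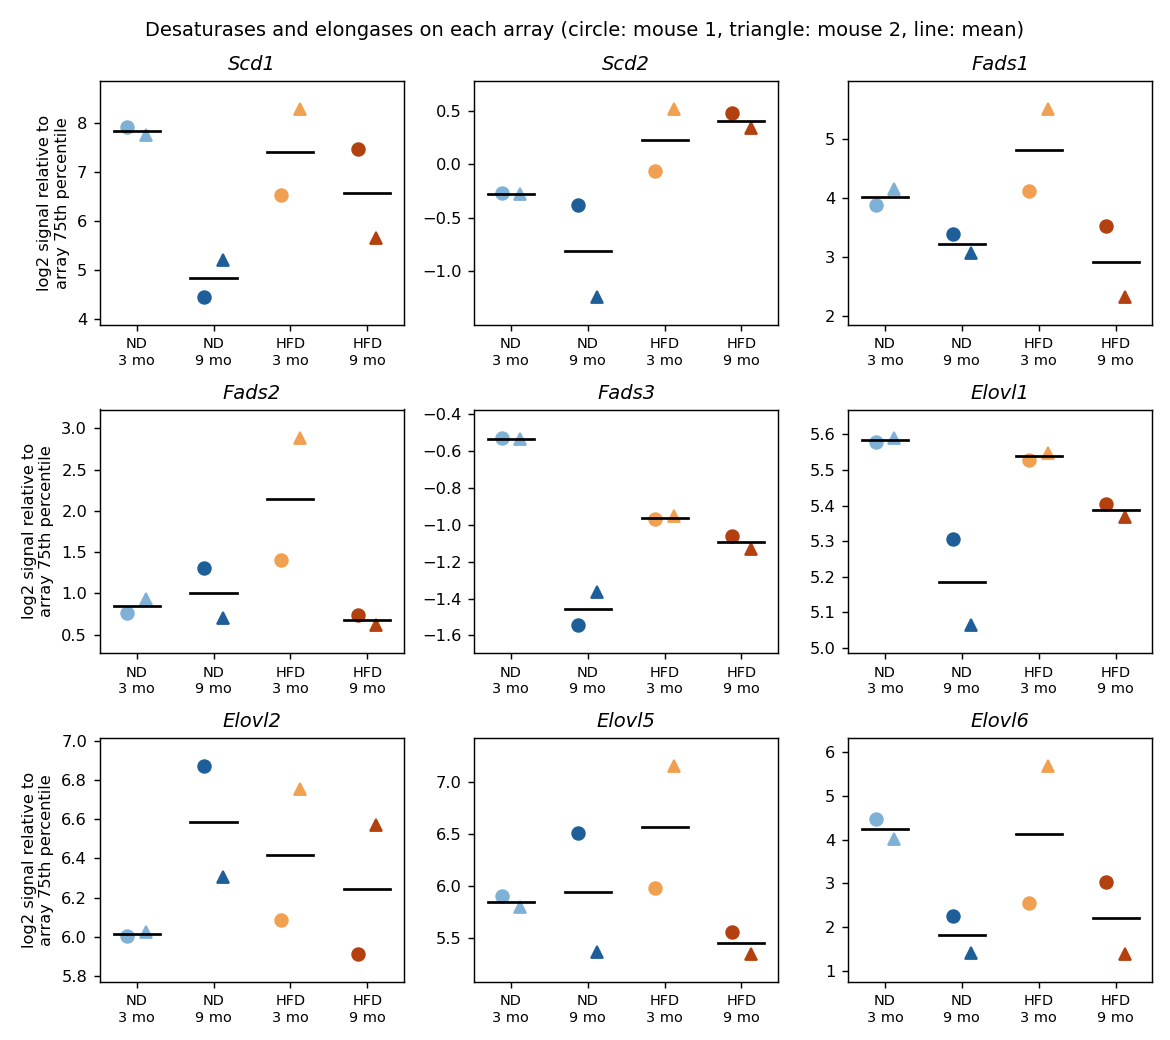
Signal of the 9 genes on each of the 8 arrays (log2 relative to the 75th percentile of the array; circles are mouse 1, triangles mouse 2, lines the mean of the 2 mice of a group; each panel has its own axis). The ND 9-month points of Scd1, 4.45 and 5.20, lie below those of every other array, and the points of HFD 3 months lie far apart for Elovl6, at 2.56 and 5.67.

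Scd1, the main stearoyl-CoA desaturase of liver, makes oleate and palmitoleate from saturated fatty acids. Its signal was 7.91 and 7.75 in the ND mice of 3 months, 4.45 and 5.20 in the ND mice of 9 months, 6.51 and 8.27 on HFD for 3 months and 7.45 and 5.65 on HFD for 9 months. The 2 ND mice of 9 months were the lowest of all 8, while the HFD mice of each duration lay far from each other. On ND, Scd1 was 8.02-fold lower at 9 than at 3 months (-3.00 ± 0.76, limma adjusted p = 0.138), and 0.64% of all features differed more. At 9 months it was 3.31-fold higher on HFD than on ND (1.73 ± 0.76, limma adjusted p = 0.193), with both HFD mice above both ND mice. Without the dim array this difference was 2.63 ± 0.76 (limma adjusted p = 0.0862), and without the other HFD mouse 0.83 ± 0.76 (limma adjusted p = 0.501). At 3 months the diets differed by -0.44 ± 0.76 (95% interval -2.26 to 1.39), and the sign turned, to 0.44, without HFD 3 months mouse 1. The difference between the diet effects was 2.17 ± 1.07 (limma adjusted p = 0.707), larger than for all but 1.82% of features. On HFD the 9-month mice stood at -0.84 ± 0.76 relative to the 3-month mice, or 0.06 without the dim array and 0.04 without HFD 3 months mouse 2.

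Scd2, a second stearoyl-CoA desaturase, is known mainly from brain and from developing tissues. It stood at -0.27 and -0.28 on ND for 3 months, -0.38 and -1.24 on ND for 9 months, -0.07 and 0.51 on HFD for 3 months and 0.48 and 0.34 on HFD for 9 months. Every HFD mouse lay above every ND mouse. The difference was 0.50 ± 0.33 at 3 months (limma adjusted p = 0.378) and 1.21 ± 0.33 at 9 months (limma adjusted p = 0.0752), the smallest adjusted p of the 9 genes for diet at 9 months. These ran from 0.21 to 0.79 and from 0.78 to 1.64 with 1 array left out. Time made a difference of -0.53 ± 0.33 on ND and 0.18 ± 0.33 on HFD, and the latter was -0.12 after normexp correction and -0.11 in the authors' value table.

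Fads2 and Fads1 act in turn on dietary linoleic and alpha-linolenic acid, Fads2 at the first desaturation and Fads1 at the later one that yields arachidonic and eicosapentaenoic acid. Fads2 stood at 0.76 and 0.93 on ND for 3 months, 1.31 and 0.70 on ND for 9 months, 1.40 and 2.89 on HFD for 3 months and 0.74 and 0.61 on HFD for 9 months. The 2 mice on HFD for 3 months were the highest of the 8, and the other 6 lay between 0.61 and 1.31. At 3 months the diets differed by 1.30 ± 0.48, or 2.46-fold (limma adjusted p = 0.157). Without HFD 3 months mouse 1 this difference was 2.04 with an adjusted p of 0.0484, the 1 case in which a member was called for diet. Without mouse 2 of that group it was 0.55 (adjusted p = 0.371). On HFD, Fads2 was 2.76-fold lower at 9 than at 3 months (-1.47 ± 0.48, limma adjusted p = 0.261; from -2.21 to -0.72 with 1 array left out), and at 9 months the diets differed by -0.33 ± 0.48. The difference between the diet effects was -1.62 ± 0.68 (limma adjusted p = 0.656).

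Fads1 gave 3.88 and 4.16 on ND for 3 months, 3.39 and 3.07 on ND for 9 months, 4.12 and 5.50 on HFD for 3 months and 3.52 and 2.33 on HFD for 9 months. Its 4 values at 9 months were all below its 4 values at 3 months, while the diets overlapped at each duration. The 9-month mice were 3.70-fold lower than the 3-month mice on HFD (-1.89 ± 0.55, limma adjusted p = 0.228), a difference exceeded by 1.75% of features. It ran from -2.57 to -1.20 with 1 array left out. On ND the same comparison gave -0.79 ± 0.55 (limma adjusted p = 0.572). Diet made a difference of 0.80 ± 0.55 at 3 months and -0.30 ± 0.55 at 9 months, and the latter turned to 0.29 without the dim array.

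Fads3, a relative of both that is known to act on sphingoid bases, differed by at most 0.18 between the mice of a group. It stood at -0.53 and -0.54 on ND for 3 months, -1.54 and -1.37 on ND for 9 months, -0.97 and -0.96 on HFD for 3 months and -1.06 and -1.13 on HFD for 9 months. The 4 groups did not overlap, in the order ND 3 months, HFD 3 months, HFD 9 months and ND 9 months. On ND it was 1.89-fold lower at 9 than at 3 months (-0.92 ± 0.17, limma adjusted p = 0.0685). This passed when only probes above background on every array were kept (adjusted p = 0.0484) and with array weights (adjusted p = 0.0150). HFD stood below ND at 3 months (-0.43 ± 0.17, limma adjusted p = 0.169) and above it at 9 months (0.36 ± 0.17, limma adjusted p = 0.210). The difference between these effects was 0.79 ± 0.23 (limma adjusted p = 0.550).

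Among the elongases, Elovl6 extends palmitate to stearate, the substrate of Scd1. It stood at 4.47 and 4.01 on ND for 3 months, 2.25 and 1.42 on ND for 9 months, 2.56 and 5.67 on HFD for 3 months and 3.04 and 1.40 on HFD for 9 months. Its ND mice of 9 months lay below those of 3 months. Of the 2 on HFD for 3 months, 1 held the highest value of all and 1 lay below both ND mice of that duration. Over the 8 arrays it spanned 19.3-fold, the widest range of the 9 genes. On ND it was 5.29-fold lower at 9 than at 3 months (-2.40 ± 1.04, limma adjusted p = 0.331), and on HFD the difference was -1.89 ± 1.04 (limma adjusted p = 0.411). The latter was -3.45 without HFD 3 months mouse 1 and -0.34 without mouse 2 of that group. The diets differed by -0.12 ± 1.04 at 3 months (95% interval -2.62 to 2.38) and by 0.38 ± 1.04 at 9 months (-2.12 to 2.88). The sign of the former was positive after normexp correction (0.05) and in the authors' value table (0.12), so no direction can be given for diet.

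Elovl1 makes very long saturated and monounsaturated chains, many of them for sphingolipids. Its brighter probe gave 5.58 and 5.59 on ND for 3 months, 5.31 and 5.06 on ND for 9 months, 5.53 and 5.55 on HFD for 3 months and 5.41 and 5.37 on HFD for 9 months. The groups followed the order of Fads3 and did not overlap, over a total range of 1.44-fold, which 92.4% of features exceeded. On ND the 9-month mice stood at -0.40 ± 0.17 (limma adjusted p = 0.328), and the diets differed by -0.05 ± 0.17 at 3 months and 0.20 ± 0.17 at 9 months. The 3-month value was positive under quantile normalization (0.16), after normexp (0.16) and in the authors' value table (0.21). The dimmer probe gave 1.82 and 1.90, then 1.52 and 1.31, then 0.95 and 1.61, then 1.20 and 0.76 for the groups in the same order. Here all 4 HFD mice stood below the ND mice of 3 months, and the diets differed by -0.58 ± 0.28 at 3 months and -0.44 ± 0.28 at 9 months (limma adjusted p = 0.258 and 0.360; 4.26% and 7.2% of the 25801 probes were called). The 2 probes thus had opposite signs for diet at 9 months.

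Elovl5 and Elovl2 lengthen polyunsaturated chains, Elovl5 those of intermediate length and Elovl2 the longer ones on the way to docosahexaenoic acid. For Elovl5 the signals were 5.90 and 5.80 on ND for 3 months, 6.51 and 5.37 on ND for 9 months, 5.98 and 7.15 on HFD for 3 months and 5.56 and 5.35 on HFD for 9 months. Mouse 2 on HFD for 3 months was the highest, and the ND mice of 9 months enclosed those of 3 months. Diet made a difference of 0.71 ± 0.49 at 3 months and -0.49 ± 0.49 at 9 months, and time on HFD of -1.11 ± 0.49 (limma adjusted p = 0.342). The first ran from 0.13 to 1.30 and the last from -1.69 to -0.53 with 1 array left out. Elovl2 gave 6.00 and 6.02 on ND for 3 months, 6.87 and 6.31 on ND for 9 months, 6.09 and 6.75 on HFD for 3 months and 5.92 and 6.57 on HFD for 9 months. It was the 1 member whose ND mice of 9 months both exceeded those of 3 months (0.57 ± 0.34, limma adjusted p = 0.500), and its other groups overlapped at 9 months and on HFD. At 3 months the diets differed by 0.40 ± 0.34 and at 9 months by -0.34 ± 0.34.

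**Figure D2:**
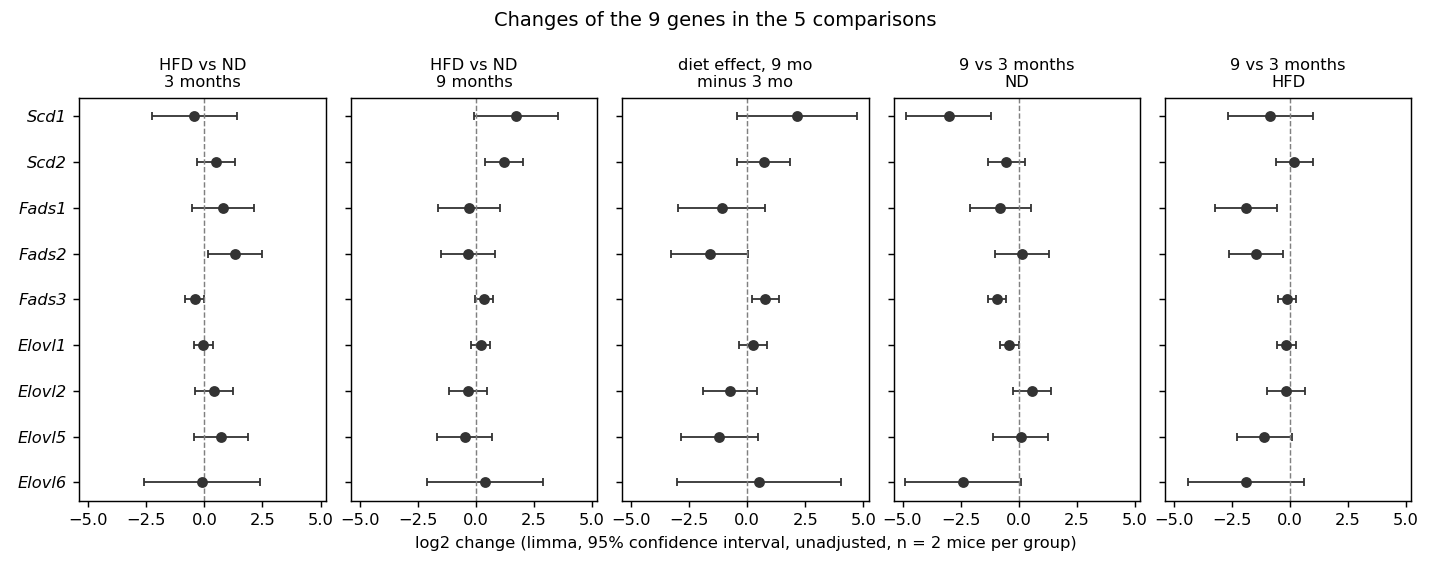
Log2 difference of each of the 9 genes in the 5 comparisons, with its 95% confidence interval from limma, not adjusted for the number of features (n = 2 mice per group). The intervals are narrowest for Fads3 and Elovl1 and widest for Elovl6, whose diet effect at 3 months runs from -2.62 to 2.38.

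Members whose groups did not overlap were counted beside the share of all features for which this held. At 3 months 6 of 9 members had both HFD mice on 1 side of both ND mice, against 71% of features. Scd2, Fads2, Elovl2 and Elovl5 were higher on HFD (35.6% of features) and Fads3 and Elovl1 lower (35.4%). At 9 months it was 4 of 9 against 54.6%. Scd1, Scd2, Fads3 and Elovl1 were higher on HFD (28.5% of features) and none was lower (26.1%). With time on ND it was 7 of 9 against 60.5%. Scd1, Scd2, Fads1, Fads3, Elovl1 and Elovl6 were lower at 9 months (37.1% of features) and Elovl2 was higher (23.4%). With time on HFD it was 5 of 9 against 44.3%. Fads1, Fads2, Fads3, Elovl1 and Elovl5 were lower at 9 months (23.3% of features) and 0 were higher (21%). The comparisons of time and those of diet share mice and are not separate evidence. Separation of all 4 groups at once, or of all mice of 1 diet or 1 duration from the rest, was not counted over all features. The median log2 difference of the 9 genes was 0.40 for diet at 3 months, 0.20 for diet at 9 months, -0.53 for time on ND and -0.84 for time on HFD. Over all features the medians were -0.0066, 0.017, -0.075 and -0.0043.

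How far the 2 mice of a group differed varied between the groups. Mouse 1 lay in column 1 of its slide and mouse 2 in column 2, so mouse number and column cannot be told apart. The median size of the gap over the 9 genes was 1.17 on HFD for 3 months (0.253 for all features) and 0.613 on ND for 9 months (0.237). It was below that of all features on ND for 3 months (0.103 against 0.140) and on HFD for 9 months (0.203 against 0.433). On HFD for 3 months all 9 genes were higher in mouse 2 than in mouse 1, as were 49.3% of all features, and the median gap was 1.17 against -0.0054. The gap was 3.11 for Elovl6 (8.64-fold, exceeded in size by 0.441% of features), 1.76 for Scd1 (3.39-fold), 1.49 for Fads2, 1.38 for Fads1 and 1.17 for Elovl5. These 5 exceeded the 90th percentile of the gaps of all features (0.994), while Fads3 and Elovl1 differed by 0.014 and 0.019. Mouse 2 gave the highest of the 8 values for 6 of 9 members (Scd1, Scd2, Fads1, Fads2, Elovl5 and Elovl6), against 10.1% of all features.

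On HFD for 9 months the order was the other way for 8 of 9 members, with mouse 2 lower than mouse 1, while 52.1% of all features were higher in mouse 2. The gap was -1.80 for Scd1 and -1.63 for Elovl6, the 2 members past the 90th percentile of all features (1.26). It was -1.19 for Fads1, and only Elovl2 was higher in mouse 2 (0.66). This mouse 2 is the animal of the dim array, and it gave the lowest value for 4 of 9 members (Fads1, Fads2, Elovl5 and Elovl6) against 17% of all features. Among the ND mice of 9 months 7 of 9 members were lower in mouse 2, by as much as -1.14 for Elovl5, while Scd1 and Fads3 were higher (0.76 and 0.18). The ND mice of 3 months differed least, with 4 members higher and 5 lower in mouse 2 and no gap above the 90th percentile of 0.466. Beside these gaps, 10 of 12 hepatocyte marker genes were higher in mouse 2 on HFD for 3 months (median gap 0.17) and 6 of 12 on HFD for 9 months (median gap 0.15). Their part in the gaps was not tested. Nor was that of the low signal of the dim array, or of the wider spread of replicate spots on HFD arrays.

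**Figure D3:**
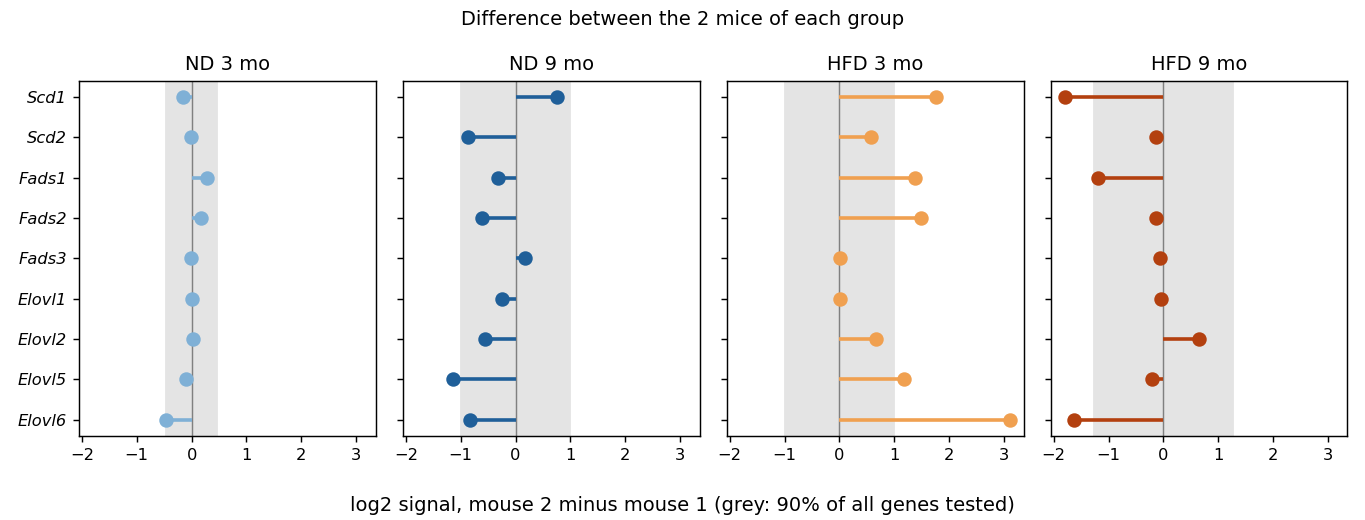
Difference between the 2 mice of each group (log2 signal of mouse 2 minus mouse 1) for the 9 genes; grey bands hold 90% of all features tested. On HFD for 3 months all 9 points lie at or right of 0 and Elovl6 reaches 3.11, whereas on HFD for 9 months 8 of 9 lie left of 0.

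Genes that make saturated fatty acids, the substrates of Scd1 and Elovl6, were also split between the mice. Of the 12 genes of this list, 11 were higher in mouse 2 on HFD for 3 months (median gap 1.25) and 10 were lower in mouse 2 on HFD for 9 months (median gap -0.18). On ND 0 of 12 rose and 2 fell from 3 to 9 months (median -1.63, against -0.075 for all features), while 1.04% of all features were called. On ND 11 of 12 lay lower at 9 months without overlap, against 37.1% of all features. Mid1ip1, an activator of acetyl-CoA carboxylase, fell by 2.92 ± 0.19 on the log2 scale (limma adjusted p = 0.00697), and Thrsp, its lipogenic relative, by 6.89 ± 1.02 (limma adjusted p = 0.0444). For diet at 9 months 2 of 12 were higher and 0 lower (median 0.59, against 0.017), beside 8.28% of all features called, namely Thrsp (4.64 ± 1.02, limma adjusted p = 0.0447) and Pklr, liver pyruvate kinase (2.51 ± 0.40, limma adjusted p = 0.0212). For diet at 3 months and for time on HFD 0 of 12 passed, beside 5.18% and 0.00992% of all features. The medians were 0.23 and -0.81, against -0.0066 and -0.0043 for all features. With 1 array left out, Mid1ip1 passed in 5 of 8 cases (not without either ND 3-month mouse or ND 9-month mouse 1), and Thrsp in 2 of 8 for either comparison (those without an HFD 9-month mouse). Pklr passed in 3 of 8 (those without an HFD 3-month mouse or HFD 9-month mouse 2). Array weights ended the calls of Thrsp and Pklr for diet, and the replicate block ended both calls of Thrsp. Quantile normalization and the 75th percentile over probes above background on all arrays ended that of Thrsp on ND, and normexp and the authors' value table that of Pklr.

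All 14 regulators of the family on the list were measured. Srebf1, which encodes the main activator of lipogenic genes, gave 2.89 and 2.15 on ND for 3 months, -1.93 and -1.78 on ND for 9 months, 3.25 and 3.49 on HFD for 3 months and 0.87 and 0.92 on HFD for 9 months. None of its groups overlapped, and the ND mice of 9 months were the lowest, as for Scd1. On ND it fell by 4.37 ± 0.27 (limma adjusted p = 0.00697), and at 9 months it was higher on HFD than on ND by 2.75 ± 0.27 (limma adjusted p = 0.00758). Its difference between the diet effects was 1.90 ± 0.38 (limma adjusted p = 0.372). The higher value on HFD at 9 months passed in 8 of 8 cases with 1 array left out, and the fall on ND in 5 of 8, not without either ND 3-month mouse or ND 9-month mouse 1. The call for diet at 9 months ended with array weights and when only the 4 arrays of 9 months were fitted, as all calls of listed genes did in that fit.

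Insig1, which holds that activator in the endoplasmic reticulum, fell on ND (-3.03 ± 0.46, limma adjusted p = 0.0475), and Insig2, its partner, was lower on HFD at 9 months (-1.14 ± 0.23, limma adjusted p = 0.0389). Pparg, the adipogenic nuclear receptor, fell on ND (-1.53 ± 0.17, limma adjusted p = 0.0271) and was higher on HFD at 9 months (1.40 ± 0.17, limma adjusted p = 0.0107). Ppargc1b, a coactivator, was at least 12.9-fold lower on HFD at 3 months, where it was not well above background on either HFD array. It entered the fit only through the ND arrays, where it is high, and is a description with no p; its fitted difference of -4.62 was -2.10 in the authors' value table and -2.46 after normexp, smaller than the bound. Such a bound divides the mean of the bright group by the lowest signal that counted as above background where the gene was dim. Ppargc1b is left out of the counts that follow. Of the other regulators 0 were called for diet at 3 months. For diet at 9 months 2 rose and 1 fell, with time on ND 0 rose and 3 fell, and with time on HFD 0 passed. Of all features 5.18%, 8.28%, 1.04% and 0.00992% were called in these comparisons. Mlxipl, the carbohydrate response factor, passed in no comparison (diet effects -0.43 ± 0.35 at 3 months and 0.27 ± 0.35 at 9 months). The same holds for Nr1h3, an oxysterol receptor (-0.09 ± 0.21 and 0.16 ± 0.21), and Ppara, the receptor that drives fatty acid oxidation (0.44 ± 0.19 and 0.14 ± 0.19). With 1 array left out Insig1 and Pparg passed on ND in 2 of 8 cases (those without an HFD 9-month mouse) and Insig2 in 1 (that without HFD 9-month mouse 1). Pparg passed for diet in 7 of 8 (not without ND 9-month mouse 2). The call of Insig1 also ended under quantile normalization and with the 75th percentile over probes above background on all arrays, and that of Insig2 with array weights. The replicate block ended the calls of Insig1 and Pparg on ND.

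**Figure D4:**
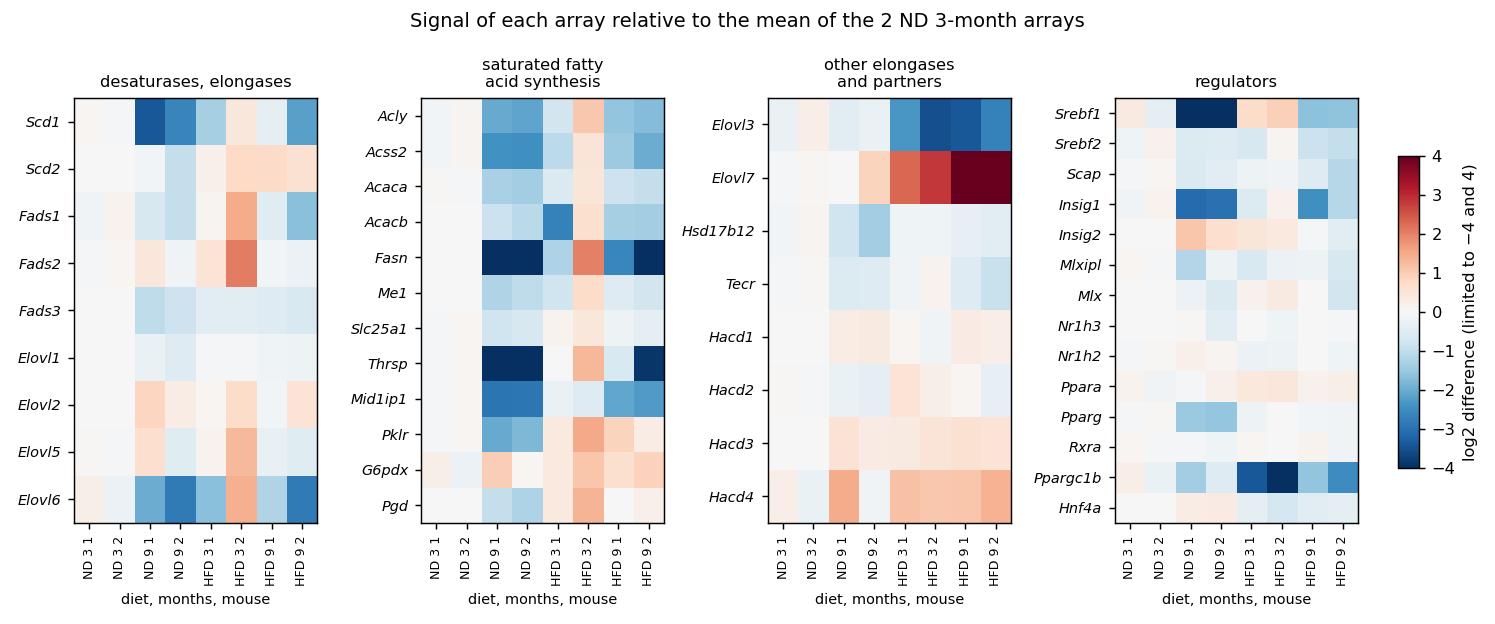
Signal of the 9 genes and of 3 related gene lists on each array, as the log2 difference from the mean of the 2 arrays of ND 3 months (blue is lower, red higher, colours end at -4 and 4). Scd1 and Srebf1 are blue in both ND columns of 9 months, and Elovl3 is blue in all 4 HFD columns.

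Relatives outside the 9 genes include Elovl3, an elongase lower on HFD at both durations. Of 9 other elongases and partners of the elongation cycle 8 were measured. Leaving Elovl7 out of the count, 1 was called at each duration, Elovl3, against 5.18% and 8.28% of all features in either direction. The medians of the 8 were 0.20 and 0.17 for diet. Elovl3, known from male mouse liver and brown fat, gave 4.72 and 5.24 on ND for 3 months, 4.57 and 4.72 on ND for 9 months, 2.64 and 1.48 on HFD for 3 months and 1.57 and 2.28 on HFD for 9 months. All HFD mice lay below all ND mice. The difference was -2.92 ± 0.44 at 3 months (limma adjusted p = 0.0251) and -2.71 ± 0.44 at 9 months (limma adjusted p = 0.0221). Elovl7, an elongase of long saturated chains, was not well above background on any ND array, and was so on 1 of 2 HFD arrays at 3 months and on both at 9 months. It was at least 1.71-fold higher on HFD at 3 months and at least 9.30-fold higher at 9 months. It entered the fit only through the HFD arrays of 9 months, where it is high, so it is given as a description with no p. Its fitted differences of 2.55 and 4.46 were 0.47 and 1.61 in the authors' value table and 0.63 and 1.94 after normexp, all smaller than those bounds. With time 0 of 8 passed on either diet. With 1 array left out Elovl3 passed in 6 of 8 at 3 months (not without either ND 3-month mouse) and in 3 of 8 at 9 months (those without an HFD 3-month mouse or HFD 9-month mouse 2). The latter call also ended with array weights.

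Of 11 other desaturases and electron carriers 8 were measured, and 1 of them passed, Cyb5b, a cytochrome b5 (-1.49 ± 0.16 with time on ND, limma adjusted p = 0.0271). Its call held in 2 of 8 cases with 1 array left out, those without an HFD 9-month mouse. The call of Cyb5b also ended with the replicate block. With time on ND 1.04% of all features were called. The median of the list was -0.28 for diet at 3 months, 0.26 for diet at 9 months, -0.56 for time on ND and -0.07 for time on HFD. Scd3, a close relative of Scd1, gave 2.01 and 1.91 on ND for 3 months, -2.78 and -1.53 on ND for 9 months, -0.14 and 1.69 on HFD for 3 months and 0.29 and -0.66 on HFD for 9 months. Like Scd1 it was lowest in both ND mice of 9 months, at -4.12 ± 0.70 relative to 3 months (limma adjusted p = 0.0608), and higher in mouse 2 on HFD for 3 months.

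Further lists held genes that use the products. Beside their counts, 5.18% of all features were called for diet at 3 months, 8.28% for diet at 9 months and 1.04% with time on ND. Slc27a1, a fatty acid transporter, was the 1 of 8 measured acyl-CoA synthetase genes (of 9) to pass, lower on HFD at 9 months (-1.38 ± 0.30, limma adjusted p = 0.0446). That held in 1 of 8 cases with 1 array left out, that without HFD 9-month mouse 1, and ended with array weights. Of 12 genes that acylate phospholipids and glycerides 8 were measured and 0 passed in any comparison. All 11 genes of peroxisomal beta-oxidation, which shortens the longest products, were measured. Abcd2, a peroxisomal transporter of very long chains, was higher on HFD at 3 months (2.60 ± 0.50, limma adjusted p = 0.0424) and at 9 months (2.32 ± 0.50, limma adjusted p = 0.0431). Ehhadh, an enzyme of that pathway, rose with time on ND (2.05 ± 0.18, limma adjusted p = 0.0187) and was lower on HFD at 9 months (-1.33 ± 0.18, limma adjusted p = 0.0139), and the other 9 genes passed in no comparison. With 1 array left out Abcd2 passed in 4 of 8 cases at 3 months (not without any 3-month mouse) and in 1 of 8 at 9 months (that without ND 9-month mouse 1). Ehhadh passed in 4 of 8 on ND (not without any ND mouse) and in 6 of 8 for diet (not without either ND 9-month mouse). Both calls of Abcd2 ended under quantile normalization, and array weights ended those of Abcd2 and Ehhadh for diet at 9 months. The replicate block ended both calls of Abcd2 and that of Slc27a1.

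By the likeness of pattern over the 8 arrays, the named genes nearest to each member were Slco2b1 for Elovl6 (Pearson r = 0.986), Cyp2a12 for Scd1 (0.978), Lxn for Scd2 (0.978), Pgrmc2 for Fads1 (0.956) and Tinagl1 for Fads2 (0.952). For the rest they were F11 for Fads3 (0.991), Ufc1 for Elovl1 (0.991), Kiss1 for Elovl2 (0.922) and Scpep1 for Elovl5 (0.925). These are the highest of all named features, picked from arrays that share 2 slides, and they are a description with no test.

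The tissue label was checked on marker genes. All 12 hepatocyte markers were measured, with a summed signal (log2) of 12.5 to 12.6 on ND and 12.0 on both HFD arrays at 3 months, and of 12.4 on ND and 11.9 to 12.5 on HFD at 9 months. Of them 0 passed for diet at 3 months and 1 was lower at 9 months; the counts of markers called stand beside 5.18% and 8.28% of all features called in either direction. Of 8 adipocyte markers 4 were measured, and the defining Adipoq, Lep, Retn and Plin1 were not among the features kept. Whether these lacked signal or a probe with a matched symbol was not told apart. The summed signal of the other 4 was 5.03 to 5.46 on ND and 5.76 to 5.97 on HFD at 3 months, and 5.53 to 6.04 on ND and 6.17 to 6.71 on HFD at 9 months, with 1 of 4 higher on HFD at 9 months. Among macrophage markers 9 of 10 were measured, and 2 were higher on HFD at 3 months and at 9 months (Itgax and Trem2). With 1 array left out, Itgax ran from 2.09 to 2.81 at 3 months and from 2.82 to 4.16 at 9 months. Trem2 ran from 2.43 to 2.81 and from 3.97 to 4.85. The 3-month call of Itgax ended under quantile normalization, with no filter and with the replicate block. Its 9-month call ended with no filter and with array weights. The 3-month call of Trem2 ended in the authors' value table and with no filter. Neither 3-month call held in every case with 1 array left out. On ND at 3 months Itgax was well above background on 1 of 2 arrays. Its 3-month difference was as low as 0.907 among the alternatives. Gpnmb entered the fit only through the HFD arrays of 9 months, where it is high. It is left out of these counts and given as a description with no p (4.14 at 9 months, 2.11 in the value table). The summed signal of the 9 macrophage markers was 5.76 to 5.90 on ND and 6.05 to 6.41 on HFD at 3 months, and 6.73 to 8.28 on ND and 6.44 to 7.20 on HFD at 9 months. In such a sum the brightest probes weigh most. The mean of their log2 values at 9 months was 2.2 and 1.0 on ND and 2.6 and 3.1 on HFD. For diet, the lowest and highest of the 9 were Itgam (-0.6) and Trem2 (2.6) at 3 months, and Marco (-2.6) and Trem2 (4.4) at 9 months. Stellate cell and fibroblast markers (7 of 8 measured) had 2 higher on HFD at 3 months and 3 at 9 months, with a summed signal of 6.15 to 6.33 on ND and 6.53 to 6.98 on HFD at 3 months, and 6.30 to 6.68 on ND and 6.56 to 6.79 on HFD at 9 months. Endothelial markers (8 of 8 measured) had 1 higher on HFD at 3 months, lymphocyte markers (5 of 8) 1 lower at each duration, and cholangiocyte markers (4 of 6) 1 lower at 9 months. The part of these cell types in the values of the 9 genes was not tested.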

How the data were processed

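Gene expression was measured in liver RNA of 8 mice on 8 one-colour arrays. Per the labels, total RNA was extracted with a column kit and labelled with Cy3. The scanner files deposited by the authors come from Agilent Feature Extraction 10.7.1.1, per the submitters' processing notes. In them, per the file headers, the processed signal gives intensity with background subtracted and spatial trends removed, and no scaling across arrays; the deposited flags are 0 or 1 per spot. The value table deposited by the authors holds log2 values in the same order as each array's median signal (Spearman's rho of 1) and with nearly equal column medians of 7.14, as tested on the files; its normalization is not given in the sources used here.

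Control spots (3671) were left out and outlier spots dropped. From each log2 intensity the 75th percentile of its array was subtracted (pseudocount 0), and spots of a probe were averaged. Probes not well above background in both mice of any group were left out, and a gene took its kept probe with the highest mean. Of 55681 probes 26056 matched a RefSeq symbol (GRCm38.p6, names only). Tests used limma 3.58.1 in R 4.3.3 on the 4 group means, checked on simulated data. Figures were drawn with matplotlib 3.10.9. The 9 genes, the gene lists and the contrasts were chosen with earlier results of these data known, and the lists carry no test of their own. Named beyond the 9 genes were the regulators, up to 4 genes of each related list with the smallest p, and the nearest genes by correlation. Alternatives covered scaling, background correction, the value table, filters, probe choice, moderation, weights, the replicate number as a block, subsets of arrays and each array left out. Per the labels the mice are separate animals; the p-values measure the spread between them together with that between arrays, and their number limits the precision.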

Additional observations from a re-analysis of the deposited data

Results flagged for a closer look

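In Fads3 and Elovl1 both HFD mice lay below both ND mice at 3 months and above both at 9 months. Groups did not overlap in 71% of all features at 3 months and in 54.6% at 9 months. How many features crossed in this way was not counted. The difference between the diet effects at 9 and 3 months was 0.788 for Fads3 on the log2 scale and 0.248 for Elovl1. It was larger in size for 19.6% of features than for Fads3, and for 62.3% than for Elovl1. By limma's test of that difference neither passed (adjusted p = 0.550 and 0.817), and no feature of the array did (0 of 20165). With 1 array left out the difference ran from 0.699 to 0.877 for Fads3 and from 0.127 to 0.370 for Elovl1. For Elovl1 the lower value at 3 months turned positive under quantile normalization, after normexp and in the authors' value table, and its second probe was lower on HFD at both durations.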

How the results depend on the processing

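The count of 0 members called was kept under all alternatives run but 3. Keeping only probes above background on every array, 1 member was called for time on ND (Fads3), and with array weights 2 were (Fads3 and Scd1, adjusted p = 0.0150 and 0.0241). With 1 array left out the count ran from 0 to 1 for diet at 3 months (Fads2, without HFD 3 months mouse 1) and was 0 in the other comparisons. Of 851 single values under an alternative 823 kept their direction and side of the threshold, 4 newly passed and 24 changed sign, none of them past the threshold. For Elovl1 and diet at 3 months the value was 0.163 with quantile normalization, 0.159 with normexp and 0.208 in the authors' value table; at 9 months it was -0.118 as the mean of both probes. Elovl6 and diet at 3 months gave 0.0453 with normexp and 0.119 in the value table, and Scd2 and time on HFD -0.117 and -0.106. Leaving out 1 array turned the sign of these values, given as lowest to highest: for diet at 3 months Scd1 (-1.32 to 0.444) and Elovl6 (-1.68 to 1.43); for diet at 9 months Fads1 (-0.897 to 0.291), Elovl5 (-1.06 to 0.0838) and Elovl6 (-0.433 to 1.20); for the difference between the diet effects Elovl6 (-1.05 to 2.06). For time on ND they were Fads2 (-0.150 to 0.463) and Elovl5 (-0.481 to 0.660), and for time on HFD Scd1 (-1.74 to 0.0603), Scd2 (-0.106 to 0.473) and Elovl2 (-0.507 to 0.158). The cause was not tested.

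Counts over all features moved more. For diet at 3 months 1045 became 0 without either ND mouse of 3 months, 485 without HFD 3 months mouse 1, 2232 without either HFD mouse of 9 months, 68 with no filter, 3972 with array weights and 2780 with the 4 arrays alone. For diet at 9 months 1670 became 365 without ND 9 months mouse 2, 487 without either ND mouse of 3 months, 867 without ND 9 months mouse 1, 2505 without the dim array, 274 with no filter, 276 with array weights and 0 with the 4 arrays alone. For time on ND 209 ran from 0 to 340 with 1 array left out, and was 5 with no filter, 56 with the replicate block, 324 with trend and robust moderation, 1409 with array weights and 137 with the 4 arrays alone. For time on HFD 2 ran from 0 to 1933 with 1 array left out and from 0 to 69 otherwise. Having no filter moved the median of all features by over 0.1, to 0.254 and 0.296 for diet at 3 and 9 months. The replicate block called 0 members in each comparison. Deviations of same-numbered mice correlated from -0.0181 to 0.137 between groups over all features. Whether same-numbered mice shared a column effect or handling was not tested. Slide as a block could not be fitted, since each slide held 1 diet. The small number of mice limits precision.

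Genes of the related and marker lists made 37 calls. They include calls of Elovl7, Ppargc1b and Gpnmb, which were kept only through groups where they are high. Of the 37 calls 30 ended with no filter, among them all but Srebf1 on ND and 10 of 10 for diet at 3 months. With the 4 arrays alone 20 ended, all for diet at 9 months, and with array weights 14 of the same comparison. The replicate block ended 9. These were both calls of Abcd2 and of Thrsp, and those of Cyb5b, Insig1, Slc27a1, Pparg on ND and Itgax at 3 months. Quantile normalization ended 5, and 3 ended in the authors' value table. Normexp and the 75th percentile over probes above background on all arrays ended 2 each. Trend and robust moderation and the mean of probes ended 0, and keeping only probes above background on every array left 31 in the fit, of which 0 ended.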
